A study of Mus musculus with 6 samples.

Results

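Cluster 5 is a group of CD4 T cells from the mouse colon that was set apart by its transcripts for Foxp3, Penk, Klrg1, Tnfrsf9, Areg and Ikzf2. Its members were the cells that carried number 5 in the authors' deposited Phenograph clustering and had been assigned to a hashed replicate. They were 1658 of 18658 clustered and assigned cells. Of these, 162 lay among 8676 cells of the tdTomato+GFP+ gate, with 24, 80 and 58 cells in replicates 1, 2 and 3. The other 1496 lay among 9982 cells of the tdTomato-GFP- gate, with 783, 484 and 229 cells in replicates 1, 2 and 3. The description below rests mainly on the tdTomato-GFP- members, because their number is larger.

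The study sorted CD4 T cells from the lamina propria of the colon into 2 gates, tdTomato+GFP+ and tdTomato-GFP-, and sequenced the RNA and the T cell receptors of single cells. Every cell came from mice with Foxp3{delta}EGFPiCre/WT R26lsl-tdTomato/wt, so the tdTomato-GFP- cells are the comparison group and they carry the inserted alleles as well. The inserted Foxp3 allele puts EGFP and Cre under the Foxp3 promoter, and Cre activity switches on tdTomato from the R26 locus in the cell and its descendants. As far as the study is known, this allele yields no functional Foxp3 protein. Foxp3 lies on the X chromosome, so in a female with 1 inserted and 1 intact allele each cell uses one of them. A tdTomato-GFP- cell may therefore be a T cell without Foxp3 or a Treg cell that uses the intact allele, and cells with a single reporter were in neither gate. The labels give no age. The 3 replicates of a gate were marked with hashtag antibodies and loaded together on 1 droplet lane, so the gate and the lane cannot be told apart.

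Regulatory T cells (Treg cells) restrain other immune cells, and the transcription factor Foxp3 defines and maintains them. Treg cells of barrier tissues include cells with Helios (encoded by Ikzf2), Gata3, the receptor for interleukin-33 (Il1rl1), Klrg1 and the epidermal growth factor family member amphiregulin (Areg), which are known for supporting tissue repair. The colon also holds Treg cells that express Maf and Il10, many of which arise from conventional T cells in response to the microbiota.

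Levels are given in CPM, the unique molecular identifiers (UMIs) of a gene scaled to 1000000 UMIs of all genes, after summing the cells of a hashed replicate. Folds between cluster 5 and the other clusters of the same gate were formed from the mean CPM over the replicates, after adding 20 CPM to both sides. They are a description with no test, since the clustering used these genes. Of 6303 genes at 20 CPM or more in the tdTomato-GFP- gate, 197 (3.13%) were at least 1.5-fold higher in cluster 5 in all 3 replicates and 126 (2.0%) at least 1.5-fold lower. In the tdTomato+GFP+ gate the corresponding numbers were 57 (0.901%) and 80 (1.27%) of 6323 genes.

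Members had median totals of 3428 to 3890 UMIs per cell in the tdTomato+GFP+ replicates and of 3361 to 3560 in the tdTomato-GFP- replicates. The other clusters had medians of 3501 to 3767 UMIs in the tdTomato+GFP+ gate and of 3853 to 4014 in the tdTomato-GFP- gate. The 2 lanes shared 174 cell barcodes. No doublet caller was run here. The members had the RNA of CD4 T cells, with Cd3e, a chain of the T cell receptor complex, in 96.2% of tdTomato+GFP+ and 95.3% of tdTomato-GFP- members on average over the replicates. Cd4 was at 309, 423 and 436 CPM in the 3 tdTomato+GFP+ replicates of cluster 5 and at 367, 293 and 294 CPM in the 3 tdTomato-GFP- replicates.

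In the tdTomato-GFP- gate all 6 markers stood far above the rest of the gate. Foxp3 was at 779, 838 and 909 CPM in replicates 1, 2 and 3 of cluster 5, against 87.6, 97.8 and 81.1 CPM in the other clusters of the same replicates (7.92-fold). The highest other cluster with these transcripts was cluster 14, at 243 CPM. Each replicate of cluster 5 was thus well above each replicate of the other cells and above each other cluster. Ikzf2, a zinc-finger factor of stable Treg cells, was at 416, 599.5 and 703 CPM in cluster 5, against 133, 128 and 118 CPM in the other clusters (4.05-fold), and cluster 14 reached 511 CPM. Ikzf2 was thus also high in cluster 14, whose cells were shallow (median of 1026 to 1090 UMIs over the replicates). Penk, the precursor of enkephalin peptides, was at 662, 1072 and 939.8 CPM, against 64.3, 73.9 and 74 CPM (10.0-fold). Klrg1, an inhibitory receptor for cadherins, was at 271, 658 and 614 CPM, against 34.5, 74.7 and 61.8 CPM (6.94-fold). For Klrg1, replicate 1 was lower than replicates 2 and 3 both inside and outside cluster 5. Tnfrsf9, which encodes the co-stimulatory receptor 4-1BB, was at 742, 1049 and 858 CPM, against 102, 104 and 81.6 CPM (7.81-fold). Areg was at 2445, 4373 and 5376 CPM, against 463, 558 and 513 CPM (7.68-fold). Cluster 5 and the other cells did not overlap between replicates for any of the 6 markers.

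**Figure D1:**
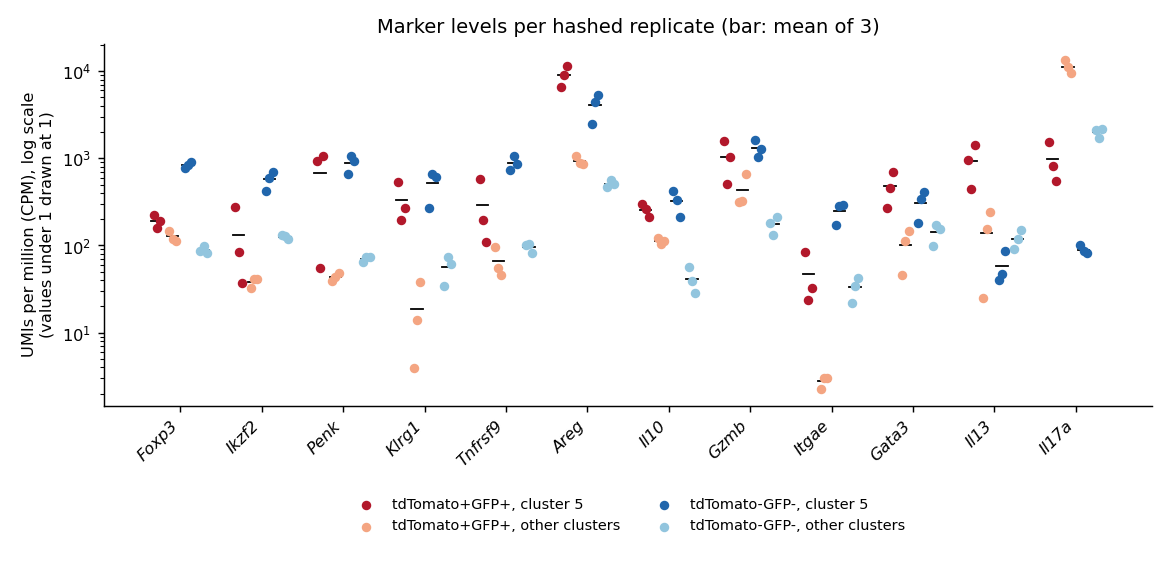
CPM on a log axis for 12 genes in cluster 5 and in the other clusters of the tdTomato+GFP+ gate, then the same for the tdTomato-GFP- gate; dots are the 3 hashed replicates, bars their means, and values under 1 CPM are drawn at 1. In the tdTomato-GFP- gate Foxp3 averaged 842 CPM in cluster 5 and 88.8 CPM elsewhere, while in the tdTomato+GFP+ gate the means were 191 and 127 CPM.

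Counted per cell, the markers were found in most or many members of the tdTomato-GFP- gate. To compare cells of unequal depth, each cell was thinned to 2000 UMIs and shallower cells were left out, which removed 47, 32 and 18 members in replicates 1, 2 and 3. Foxp3 then had a UMI in 65.9%, 71.9% and 71.6% of members, against 8.92%, 9.19% and 7.4% of the other cells. Cluster 9 held cells that expressed the naive genes Ccr7, Lef1 and Tcf7, at a median depth of 3380 to 3640 UMIs. There the thinned share was 3.36% (4.55% unthinned). It serves as a reference level, since whether cells of cluster 9 lack Foxp3 was not tested. Without thinning, Foxp3 was seen in 605 of 783, 384 of 484 and 186 of 229 members, or 77.3%, 79.3% and 81.2%. The thinned share of members with Ikzf2 was 55.3% ± 11.4 (SD over 3 replicates; 66.9% unthinned), against 2.76% in cluster 9. The same share was 70.0% ± 13.4 for Areg (75% unthinned), 58.5% ± 6.95 for Tnfrsf9 (67.8%), 41.5% ± 16.1 for Klrg1 (48%) and 18.6% ± 5.84 for Penk (21%). In cluster 9 the unthinned shares for the same genes were 4.93%, 3.28%, 0.279% and 1.35%. Penk, the marker with the largest fold, was thus seen in a minority of members.

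The genes best known from Treg cells were higher in the tdTomato-GFP- members as a group. Here and below, the counts of listed genes did not leave out the 6 markers of the cluster. Foxp3, Ikzf2 and Areg are among the listed genes, so the counts are not separate from the markers. Of 30 genes listed as Treg core genes, 29 reached 20 CPM, 22 were at least 1.5-fold higher in cluster 5 in all 3 replicates and none was lower, with a median log2 difference of 1.34, against 0.03 over all genes. Il2ra, the high-affinity chain of the interleukin-2 receptor, was at 218, 289 and 356 CPM in cluster 5, against 68.1, 65.5 and 57.4 CPM (3.68-fold). Ctla4, which competes for co-stimulatory ligands, was at 3230.3, 2916 and 2489 CPM, against 1493, 1303 and 1167 CPM (2.16-fold). The tumour necrosis factor receptor Tnfrsf4 (OX40) was at 1808, 2331 and 2323 CPM, against 570.0, 636 and 477 CPM (3.74-fold). For each of these genes the 3 replicates of cluster 5 lay above the 3 of the other clusters. Among 27 measured transcription factors of the Treg list the picture was mixed, with 6 higher and 3 lower, and a median of 0.24. Foxp3, Ikzf2, Ikzf4, Gata3, Prdm1 and Nfil3 were the higher ones, while Tcf7, Lef1 and Bach2, which are known from naive and memory T cells, were the lower ones. Foxp1 was at 103, 89.7 and 89.8 CPM in cluster 5, against 118, 111 and 125 CPM, and did not stand apart from the rest of the gate by 1.5-fold.

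Genes through which Treg cells act on other cells were mostly higher. Of 17 measured suppressive mediators, 13 were higher and none lower (median log2 difference 1.13). Il10, an anti-inflammatory cytokine, was at 420.3, 335 and 209.9 CPM in cluster 5, against 56, 38.7 and 28.4 CPM (5.6-fold). Gzmb, a protease of cytotoxic granules that Treg cells also make, was at 1636, 1036 and 1269.8 CPM, against 182, 132 and 213 CPM (6.82-fold). Il10 was lowest in replicate 3 of cluster 5 and still above every replicate of the other cells. The genes for capturing and activating TGF-β on the cell surface were also higher, with Itgb8 at 73.6, 91.3 and 90.9 CPM, against 7.78, 8.98 and 5.7 CPM (3.83-fold), and Itgav at 327, 335 and 357 CPM, against 70.1, 76.6 and 65.3 CPM (3.97-fold). In the list of TGF-β activation and response, 6 of 19 measured genes were higher and 2 lower (median 0.46). Itgae, the integrin chain that binds epithelial cadherin, was at 169.8, 287 and 293 CPM, against 22.2, 34.3 and 42.5 CPM (5.09-fold).

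Of 28 measured genes of tissue Treg cells, 17 were higher and none lower (median 1.03). Il1rl1 was at 42.6, 132 and 182 CPM, against 9.29, 25.3 and 27.8 CPM (3.4-fold), and Gata3 at 182, 338 and 408 CPM, against 99.2, 172 and 155 CPM (2.03-fold). The chemokine receptor Ccr8 was at 220.2, 436 and 449 CPM, against 65.5, 106 and 96.8 CPM (3.55-fold). Gpr15, a receptor that guides T cells to the large intestine, was at 88.3, 136 and 135 CPM, against 23.4, 29.6 and 40.8 CPM (2.73-fold). Replicate 1 of cluster 5 was the lowest for each of these genes, and for Gata3 it was only just above the highest replicate of the other cells. Gata3 was not particular to cluster 5. With the replicates pooled it was at 267 CPM there, at 308 CPM in cluster 8, 304 CPM in cluster 14 and 226 CPM in cluster 0. The remaining genes among the 20 largest folds were Cd83 (4.78-fold), Tent5a (4.37-fold), Arl5a (4.35-fold), the relaxin-family peptide gene Rln3 (4.23-fold), the tetraspanin Cd81 (4.13-fold), the neutrophil chemokine gene Cxcl2 (4.06-fold), Hopx (3.9-fold) and Gzma (3.75-fold). Rln3 was at 75.7, 194 and 138 CPM, against 9.74, 15.3 and 25.3 CPM, a level set by few UMIs per cell.

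Genes of effector, naive and dividing T cells were lower in the tdTomato-GFP- members. None of 14 measured Th17 genes was higher and 8 were lower (median log2 difference -1.33). Il17a, the defining cytokine of Th17 cells, was at 102, 85.8 and 81.6 CPM in cluster 5, against 2100.5, 1708 and 2167 CPM (0.0545-fold). Ifng, the defining cytokine of Th1 cells, was at 62, 72 and 32.6 CPM, against 369, 366 and 357 CPM (0.197-fold). Il13, a Th2 cytokine, was at 40.6, 46.5 and 86.3 CPM, against 90.6, 117 and 149 CPM (0.56-fold). The 3 cytokines were thus each lower in cluster 5 in every replicate. Other genes of the Th2 list went the other way, since 5 of 8 were higher and Il13 was the only one lower (median 1.00), but Gata3, Il1rl1, Ccr8 and Areg are also on the tissue Treg list. Of 14 naive and central memory genes 8 were lower and 1 higher (median -0.89). Tcf7 was at 48.4, 34.9 and 60.6 CPM, against 392, 343 and 374 CPM (0.174-fold), and the lymph node homing receptor gene Ccr7 at 31.7, 58.7 and 40.8 CPM, against 299, 276 and 227 CPM (0.222-fold). Cd40lg, the helper ligand for B cells, was at 74.3, 106 and 99.1 CPM, against 345, 366 and 364 CPM (0.299-fold). Of 16 cell cycle genes 9 were lower and none higher (median -0.90), but the authors' clustering has a separate cluster of dividing cells, number 10. Of 10 cytotoxic genes 6 were lower and 2, Gzma and Gzmb, were higher (median -0.92). Single clusters lay on both sides of cluster 5 for several of these genes, with the replicates pooled. Il17a was at 93.4 CPM in cluster 5, 36.8 CPM in cluster 7 and 23483 CPM in cluster 1. Il13 was at 49.5 CPM in cluster 5, 25.2 CPM in cluster 6 and 320 CPM in cluster 0. Ccr7 was at 41.8 CPM in cluster 5, 7.49 CPM in cluster 1 and 1964 CPM in cluster 9.

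Markers of other cell types were summed for the tdTomato-GFP- members. The B and plasma cell list summed to 501 to 615 CPM in cluster 5, against 274 to 361 CPM in the other clusters, with Ighm 2.23-fold higher. The myeloid and dendritic list summed to 392 to 499 CPM, against 321 to 361 CPM. The list of natural killer and innate lymphoid cells summed to 3079 to 6355 CPM, against 902 to 1079.5 CPM, mostly from Areg, which the tissue Treg list holds too. The part of RNA from such cells in the differences above was not tested.

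The tdTomato-GFP- members were not uniform, since the detection of some of these genes in a cell went together and that of others went apart. The following shares are from cells thinned to 2000 UMIs, 736, 452 and 211 of them in replicates 1, 2 and 3, and the odds ratio compares detection of the second gene in cells with and without the first. They describe cells that share a library, and no test was made. Klrg1 was found in 38.2%, 59.8% and 64.2% of cells with an Ikzf2 UMI in replicates 1, 2 and 3, against 11.6%, 34.6% and 29.7% of cells without one (odds ratios 4.71, 2.82 and 4.24). Areg was found in 72.8%, 87.9% and 89.1% of cells with Klrg1, against 49.2%, 65.1% and 68.3% of cells without it (odds ratios 2.76, 3.9 and 3.79). The odds ratios of Penk with Klrg1 were 5.53, 2.63 and 3.16, those of Klrg1 with Il1rl1 7.68, 4.22 and 3.32, and those of Klrg1 with Gata3 3.82, 2.6 and 1.3. In this first set, Klrg1 was thus found together with Ikzf2, Areg, Penk, Il1rl1 and Gata3 in every replicate.

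The second set held Maf, Il10 and Gzmb. Il10 was found in 56.2%, 49.6% and 34.9% of cells with Gzmb, against 28%, 18.3% and 9.38% of the others (odds ratios 3.29, 4.41 and 5.19). Maf, a factor that drives Il10, had odds ratios of 1.69, 2.28 and 3.37 with Il10 and of 1.76, 1.72 and 1.66 with Gzmb. These 3 genes were thus found together in every replicate. Across the 2 sets, Il10 went apart from each of Ikzf2, Klrg1, Penk, Areg and Gata3, with odds ratios below 1 in all 3 replicates. Il10 was found in 24.5%, 20.5% and 10.9% of cells with Ikzf2, against 51.2%, 36.7% and 35.1% of cells without it (odds ratios 0.31, 0.443 and 0.227), and in 25.4%, 21.1% and 18.2% of cells with Klrg1, against 44.1%, 33.2% and 20.8% of cells without it (odds ratios 0.433, 0.538 and 0.847). Ikzf2 also gave odds ratios below 1 in all 3 replicates with Maf (0.529, 0.525 and 0.614) and with Gzmb (0.436, 0.606 and 0.778), and so did Areg with Maf and Gzmb and Penk with Gzmb. The remaining pairs across the sets were less even. Klrg1, Penk and Gata3 with Maf gave values below 1 in replicates 1 and 2 and above 1 in replicate 3, Klrg1 with Gzmb gave 0.708, 0.931 and 0.904, and Gata3 with Gzmb 0.464, 1.02 and 0.912. Foxp3 itself was not tied to 1 side, since its odds ratios with Il10 were 2.08, 1.3 and 0.715, on both sides of 1. The share of members with Il10 was 39.8%, 27.2% and 19.4% in replicates 1, 2 and 3 and that with Klrg1 23%, 49.3% and 52.1%, so replicate 1 had Il10 more often and Klrg1 less often than the other replicates.

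**Figure D2:**
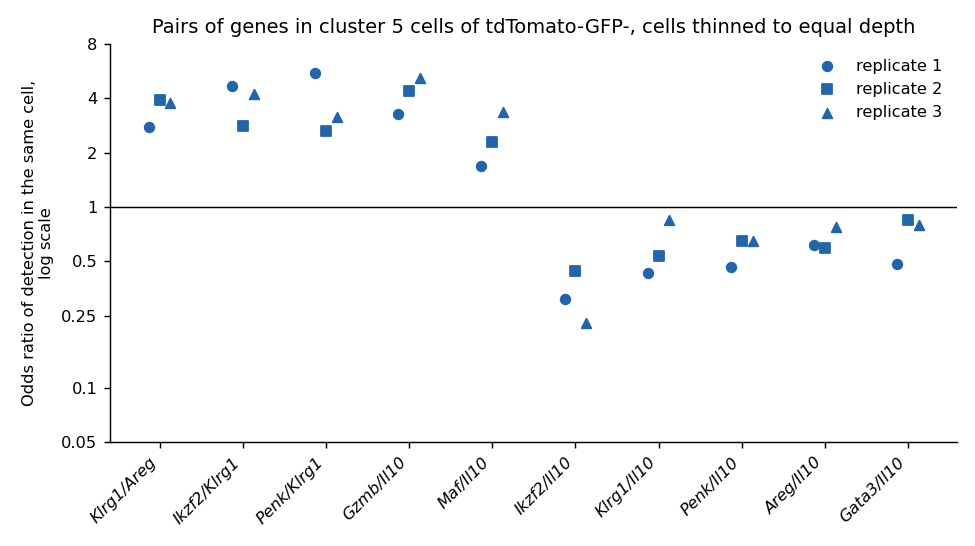
Odds ratio, on a log axis, of detecting both genes of a pair in the same tdTomato-GFP- cell of cluster 5 after thinning to 2000 UMIs, with 1 point per hashed replicate and a line at 1. The pairs within a set, such as Klrg1 with Areg at 2.76, 3.9 and 3.79, lie above 1 in all 3 replicates, and the 5 pairs of Il10 with a gene of the other set, such as Ikzf2 with Il10 at 0.31, 0.443 and 0.227, lie below it.

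The sequences of the T cell receptors come from libraries of their own and were not used by the rule that chose the members. A receptor is fixed early in the life of a T cell and is passed on to its descendants, so cells with the same receptor are kin. A clonotype was taken as 1 combination of alpha and beta V genes and junctions, and cells with both chains numbered 16, 57 and 37 among tdTomato+GFP+ members and 565, 329 and 138 among tdTomato-GFP- members of replicates 1, 2 and 3. The largest clonotypes of the tdTomato-GFP- members had 14, 16 and 4 cells in cluster 5 in replicates 1, 2 and 3. The nucleotide junctions below are printed because the cells that carry them show how the 2 sets of genes fell within clones. They are written 5′ to 3′ as the deposited receptor table gives them, with the first and the last codon of the junction in capitals. The alpha chain locus lies on mouse chromosome 14 and the beta chain locus on chromosome 6.
Replicate 1 clone A alpha chain: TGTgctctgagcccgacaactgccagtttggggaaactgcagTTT
Replicate 1 clone A beta chain: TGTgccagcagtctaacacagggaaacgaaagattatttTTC
Replicate 2 clone A alpha chain: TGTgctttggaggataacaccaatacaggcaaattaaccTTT
Replicate 2 clone A beta chain: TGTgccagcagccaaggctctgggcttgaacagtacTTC
Replicate 2 clone B alpha chain: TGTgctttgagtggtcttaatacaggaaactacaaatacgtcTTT
Replicate 2 clone B beta chain: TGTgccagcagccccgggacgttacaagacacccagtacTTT
Replicate 2 clone C alpha chain: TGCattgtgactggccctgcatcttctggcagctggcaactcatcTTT
Replicate 2 clone C beta chain: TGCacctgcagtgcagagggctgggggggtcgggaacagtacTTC

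Clones A and B of replicate 2 both used TRBV5 with different junctions and had many cells with genes of the first set. Clone A, with TRAV13-1 and TRAJ27, had 16 cells in cluster 5, of which 11 had a Foxp3 UMI, 15 Ikzf2, 12 Klrg1, 11 Penk and 15 Areg, while none had Il10. Clone B, with TRAV12-2 and TRAJ40, also had 16 cells, of which 16 had Foxp3, 16 Ikzf2, 11 Klrg1, 10 Penk and 14 Areg, and none Il10. Clone C, with TRAV2, TRAJ22 and TRBV1, differed in part. Of its 15 cells 14 had Foxp3, 14 Ikzf2 and 11 Areg, but 2 had Klrg1, none Penk and 7 Il10. Gzmb was found in 4 of 16 cells of clone A, 1 of 16 of clone B and 3 of 15 of clone C. Unlike Il10, Gzmb thus did not set clone C apart from clone A. Maf was not counted in single clones. Clone A of replicate 1, with TRAV9N-4 and TRBV26, was mixed, with Foxp3 in 12, Ikzf2 in 8, Klrg1 in 5 and Il10 in 8 of 14 cells. In replicate 1 the second largest clone had Klrg1 in 10 and Il10 in 2 of 12 cells, and the third largest Klrg1 in none and Il10 in 5 of 7. Of the 3 largest clones of replicate 3, with 4, 4 and 3 cells, the first had Klrg1 in none and Il10 in 3 cells, the second Klrg1 in 4 and Il10 in 1, and the last Klrg1 in none and Il10 in 2.

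The same was asked of all clonotypes with at least 2 thinned cells among the tdTomato-GFP- members, as a description with no test. These were 211 cells of 74 clonotypes in replicate 1, 151 cells of 35 in replicate 2 and 43 cells of 18 in replicate 3. Among the clone-mates of cells with a Klrg1 UMI, 47.7%, 77.1% and 87.5% also had one, against 15.8%, 31.1% and 15.8% among the clone-mates of cells without it. For Ikzf2 the shares were 60.9%, 74.1% and 77.8%, against 22.4%, 39.3% and 28.1%. For Penk they were 46.2%, 51.2% and 38.9%, against 7.89%, 20.1% and 23.7%. Klrg1, Ikzf2 and Penk were thus found more often among the clone-mates of cells that had them in each replicate. The same held for Areg and Gzmb. For Gata3 the shares were 23.9%, 42.04% and 66.7%, against 21.2%, 36.1% and 56.25%. The gap for Gata3 had the same direction in each replicate. It was smaller there than the gaps for Klrg1, Ikzf2 and Penk, and narrow in replicates 1 and 2. For Il10 the shares were 58.1%, 58.2% and 26.7%, against 30.5%, 12.6% and 22.2%. The gap for Il10 was wide in replicates 1 and 2 and narrow in replicate 3. Maf (71.4%, 64.8% and 43.9%, against 50.8%, 46.5% and 58.7%), Il1rl1 (25.9%, 17.7% and 14.3%, against 4.08%, 14.8% and 16.7%) and Tnfrsf9 (57.9%, 81.1% and 48%, against 45.9%, 60.5% and 72.2%) were more frequent among such clone-mates in replicates 1 and 2 and less frequent in replicate 3. For Foxp3, which most members had, they were 74.3%, 79.2% and 82.4%, against 60.5%, 66.5% and 90.5%.

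The chance of drawing 2 cells of the same clonotype, which does not depend on the number of cells sampled, was used to compare clonal expansion. Per 1000 pairs of tdTomato-GFP- cells within a replicate, 2.30, 10.0 and 3.60 shared a clonotype in cluster 5, against 2.42, 3.22 and 2.89 in the other clusters. The difference of 2.46 ± 3.79 per 1000 (SD, n = 3) was positive in 2 of 3 replicates and did not exceed the spread between them in an exact two-sided permutation test over the 3 pairs (p = 0.5, where the smallest p that 3 pairs allow is 0.25). Replicate 2 carried the difference, which was 0.291 per 1000 without it, 3.76 without replicate 1 and 3.35 without replicate 3. Among tdTomato+GFP+ cells the values were 25.0, 27.6 and 31.5 per 1000 pairs in cluster 5, against 35.0, 9.44 and 8.04 in the other clusters, a difference of 10.5 ± 18 (SD, n = 3; exact permutation p = 0.5). That difference was 20.8 without replicate 1, 6.76 without replicate 2 and 4.08 without replicate 3. The largest clonotype had 3 of 16, 9 of 57 and 5 of 37 tdTomato+GFP+ members with both chains in replicates 1, 2 and 3. The values of cluster 5 in this gate thus rest on few clonotypes.

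Clonotypes joined cluster 5 to other clusters in both gates. A cell of cluster 5 and a cell of another cluster shared a clonotype in 15.1, 4.54 and 6.27 of 1000 pairs in the tdTomato+GFP+ replicates, and in 0.526, 0.881 and 0.381 of 1000 pairs in the tdTomato-GFP- replicates. The 3 values of one gate did not overlap those of the other, and no test was made, since the gates also differ in how often their other cells share a clonotype. Of the members with both chains, 87.5%, 77.2% and 75.7% in the tdTomato+GFP+ gate and 37.5%, 40.4% and 24.6% in the tdTomato-GFP- gate belonged to a clonotype that was also found in another cluster of their replicate. Among single clusters of the tdTomato+GFP+ gate, cluster 0, whose cells expressed Gata3 and Il13, had 12.2 pairs per 1000 in common with cluster 5 (range 8.93 to 17.4 over 3 replicates), and cluster 8 had 12.2 (8.77 to 15.7 over 2 replicates). The order differed between replicates, since cluster 0 was the highest in replicates 2 and 3 but the lowest of the 9 clusters compared in replicate 1, where cluster 13 had 21.4. In the tdTomato-GFP- gate the highest means were 1.13 for cluster 11, 0.947 for cluster 10, 0.939 for cluster 8 and 0.903 for cluster 4, whose ranges overlapped. Cluster 9 had the lowest mean, 0.0196 per 1000. Cells of cluster 5 with a clonotype seen in the other gate numbered 6 of 16, 6 of 57 and 11 of 37 among tdTomato+GFP+ members and 6 of 565, 1 of 329 and 1 of 138 among tdTomato-GFP- members.

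**Figure D3:**
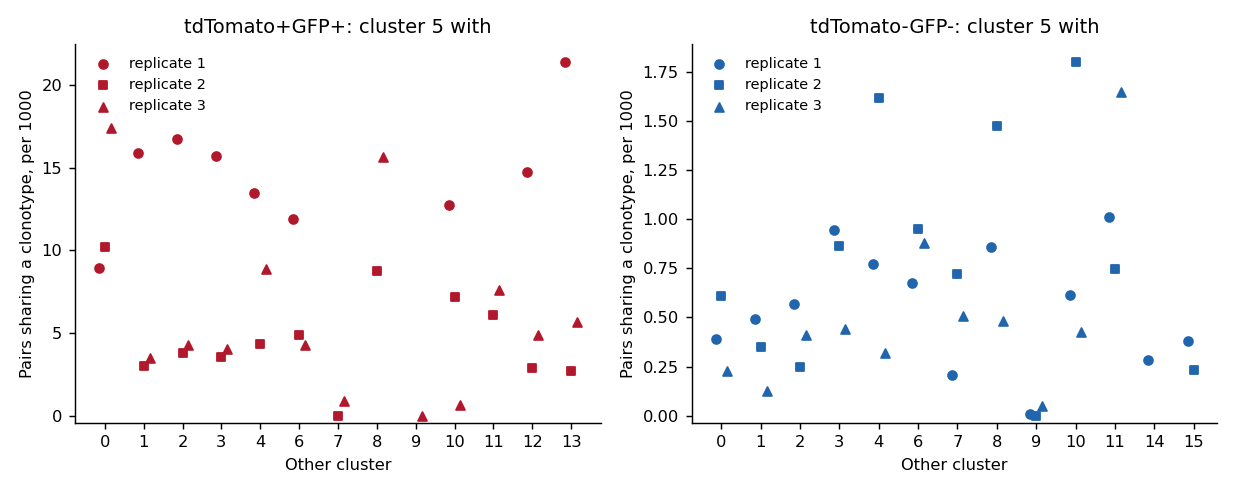
Pairs that share a clonotype per 1000 pairs of 1 cell of cluster 5 and 1 cell of each other cluster, within a replicate, for the tdTomato+GFP+ gate on the left and the tdTomato-GFP- gate on the right; the y axes differ in scale and marker shapes are the hashed replicates. The highest means are 12.2 per 1000 in the tdTomato+GFP+ gate, with clusters 0 and 8, and 1.13 in the tdTomato-GFP- gate, with cluster 11, and the highest single value is 21.4, with cluster 13 in tdTomato+GFP+ replicate 1.

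V genes were counted once per clonotype in the tdTomato-GFP- gate. TRBV12-1 was used by 3.53% of the clonotypes of cluster 5 (2.65% to 4.39% over 3 replicates), against 0.858% in the other clusters (0.538% to 1.38%). TRBV12-2 was used by 4.8% (2.93% to 6.16%), against 1.20% (0.964% to 1.56%). A further 10.6% of the clonotypes of cluster 5 (8.53% to 12.7%) and 11.5% of those of the other clusters (11.2% to 12.0%) had a joint call of TRBV12-2 and TRBV13-2, with replicates that overlapped, so the share of TRBV12-2 is uncertain. In cluster 5 these shares rest on 15, 9 and 3 clonotypes for TRBV12-1 and on 26, 6 and 6 for TRBV12-2 in replicates 1, 2 and 3, and the 2 genes are close copies whose reads can be hard to assign. Of 22 beta V genes 7, and of 90 alpha V genes 13, had replicates that did not overlap between cluster 5 and the other clusters. These shares are a description with no test, since the count table also holds receptor genes and whether the clustering used them is not given in the sources used here.

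Within the tdTomato-GFP- members, cells of expanded clonotypes (3 or more cells in the replicate) were compared with cells whose clonotype was seen once, 188, 143 and 31 cells against 265, 141 and 77 in replicates 1, 2 and 3. In edgeR's quasi-likelihood test with the replicate as a block and Benjamini-Hochberg adjustment, 12 of 6806 genes (0.176%) had an adjusted p below 0.05, 3 (0.0441%) higher and 9 (0.132%) lower in expanded clonotypes. Il13 was at 8.67, 3.78 and 0 CPM in expanded and 100.4, 117 and 161 CPM in single clonotypes (log2 fold change -4.22 with SE 0.35, adjusted p = 7.26e-10). Expanded clonotypes were lower in each replicate, and Il13 kept its adjusted p below 0.05 in each alternative in which it was tested. Ccr3, an eotaxin receptor of Th2 cells and eosinophils, was at 0, 7.56 and 0 CPM in expanded and 21.4, 56.9 and 16.5 CPM in single clonotypes (log2 fold change -3.52 with SE 0.61, adjusted p = 0.0021). Il5, the eosinophil growth factor of Th2 cells, was at 0 CPM in all 3 sums of expanded clonotypes and at 5.85, 30.2 and 26.3 CPM in single ones (adjusted p = 0.0481). These cytokine genes were rare in the cluster, with an Il13 UMI in 12 of 783, 10 of 484 and 8 of 229 of all tdTomato-GFP- members of replicates 1, 2 and 3. Il22, Calca, Myo6, Epas1, Dusp10 and P2ry10 were the other lower genes, with log2 fold changes between -3.17 and -0.73. Ifng was higher, at 101, 106 and 80.6 CPM in expanded and 21.4, 58.7 and 16.5 CPM in single clonotypes (log2 fold change 1.57 with SE 0.26, adjusted p = 0.0021), but its adjusted p was 0.19 without replicate 1, and the count of genes was 22 without replicate 1, 32 without replicate 3, 1 without the block and 3 with DESeq2. Without replicate 1 the genes Tmem176b (0.373), Cldnd1 (0.27), Epas1 (0.0903), Dusp10 (0.185) and P2ry10 (0.246) also had adjusted p above 0.05, and so did Cldnd1 (0.667), Epas1 (0.14) and P2ry10 (0.732) without replicate 2. Foxp3 was at 718, 811 and 887 CPM in expanded and 754, 768 and 837 CPM in single clonotypes (log2 fold change -0.01, SE 0.10).

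In the tdTomato+GFP+ gate the label of the cluster held for some markers and not for others. Foxp3 was at 223, 157 and 193 CPM in replicates 1, 2 and 3 of cluster 5, against 147, 119 and 114 CPM in the other clusters (1.44-fold), and cluster 14 had 222 CPM. The table has 1 column for Foxp3, so transcripts of the inserted and of the intact allele were not told apart here. The members were above the other cells in each replicate, and by less than 1.5-fold on average. The thinned share of cells that had a Foxp3 UMI was 34.8%, 20.8% and 32.1% in cluster 5, against 25.1%, 20.4% and 19.4% in the other clusters, and it was close to equal in replicate 2. In cluster 9 of this gate, with 6, 20 and 27 cells, it was 7.33% (15.1% unthinned). Unthinned, 9 of 24, 28 of 80 and 22 of 58 members had one. The tdTomato+GFP+ members are therefore called by their cluster number and not Treg cells here.

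Areg and Klrg1 did set the tdTomato+GFP+ members apart. Areg was at 6628, 8902 and 11540.4 CPM, against 1065, 888 and 859 CPM in the other clusters (9.45-fold), and Klrg1 at 532, 195 and 271 CPM, against 3.95, 13.9 and 38.3 CPM (9.11-fold). Tnfrsf9 was at 574, 195 and 111 CPM, against 95.4, 55.9 and 45.6 CPM (3.66-fold), and Ikzf2 at 277, 85.3 and 37 CPM, against 32.8, 41.6 and 41.5 CPM (2.61-fold). Replicate 1, with 24 cells, was far above the others for both genes, and replicate 3 of Ikzf2 lay within the range of the other clusters. Penk was at 926, 54.6 and 1056 CPM, against 38.9, 43.8 and 48.5 CPM, but its UMIs came from only 2 of 24, 4 of 80 and 5 of 58 members. Gata3 was at 266, 457 and 703 CPM, against 46, 112 and 147 CPM (4.07-fold), and Il1rl1 at 53.2, 191 and 267 CPM, against 1.55, 17.3 and 37.1 CPM (4.93-fold). Cells of cluster 5 were above the other cells in each replicate for Gata3 and Il1rl1. Gata3 was also high in 2 other clusters. With the replicates pooled it was at 524 CPM in cluster 5, 369 CPM in cluster 0 and 369 CPM in cluster 8.

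Genes of Th2 cytokines were higher in the tdTomato+GFP+ members than in the other clusters of their gate. Il13 was at 947, 447 and 1401 CPM, against 24.8, 153 and 240.4 CPM in the other clusters (5.97-fold), and Il4 at 351, 1140.1 and 1599 CPM, against 20.0, 220.4 and 293 CPM (5.31-fold). Il13 had a UMI in 13%, 25% and 43.4% of thinned members, against 4.52% of the other cells (unthinned 3 of 24, 23 of 80 and 29 of 58 members, and 5.43% of the other cells). The trait was shared with other clusters, since Il13 was at 890.1 CPM over all tdTomato+GFP+ cells of cluster 5 and at 751 CPM in cluster 0, 463 CPM in cluster 4 and 363 CPM in cluster 8. Replicate 1 had 3 such cells, so its level rests on few cells. Of 11 measured Th2 genes 8 were at least 1.5-fold higher in all replicates and none was lower (median log2 difference 1.68, against -0.03 over all genes). Cells with Il13 mostly had Gata3 too, in 2 of 3, 16 of 18 and 20 of 23 of them, against 3 of 20, 21 of 54 and 11 of 30 of the members without Il13. Foxp3 was found in 33.3%, 16.7% and 26.1% of the members with Il13, against 35%, 22.2% and 36.7% of those without (odds ratios 0.929, 0.7 and 0.61). Th17 genes were lower, 9 of 16 in all replicates and none higher (median -0.97). Il17a was at 1553, 826 and 551 CPM, against 13246, 11067 and 9384 CPM (0.0886-fold). Il17a had a UMI in 45.3% of members, in 83% of the other cells and in 25.2% of cluster 9, the naive-gene cells. Of 24 measured Treg core genes 6 were higher and 1 lower (median 0.51), and of 25 tissue Treg genes 10 were higher and 1 lower (median 0.81). Il10 was at 298, 259 and 214 CPM, against 122, 104 and 111 CPM (2.09-fold), and Tnfrsf4 at 1596, 1563 and 699 CPM, against 355, 468 and 397 CPM (3.06-fold).

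The largest clone of the tdTomato+GFP+ members was found in replicate 2 and the next in replicate 3, and both are shown because their cells carry the Th2 cytokine. Capitals again mark the first and the last codon of the junction.
tdTomato+GFP+ replicate 2 clone alpha chain: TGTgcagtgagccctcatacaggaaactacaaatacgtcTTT
tdTomato+GFP+ replicate 2 clone beta chain: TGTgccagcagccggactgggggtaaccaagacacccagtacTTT
tdTomato+GFP+ replicate 3 clone alpha chain: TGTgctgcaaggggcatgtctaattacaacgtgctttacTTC
tdTomato+GFP+ replicate 3 clone beta chain: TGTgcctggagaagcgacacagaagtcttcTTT
The clone of replicate 2, with TRAV7-5 and TRBV15, had 9 cells in cluster 5 and 29 in other clusters, 14 of these in cluster 0. Of the 9 cells, 9 had Areg, 9 Gata3, 7 Il13, 5 Klrg1 and 5 Foxp3. The clone of replicate 3, with TRAV5D-4 and TRBV31, had 5 cells in cluster 5 and 18 in other clusters, 12 of these in cluster 0. Of the 5 cells, 5 had Il13, 4 Areg, 4 Gata3, 4 Klrg1 and 2 Foxp3. Both clones thus joined cluster 5 to cluster 0. The largest clone of replicate 1 had 3 cells in cluster 5, each with Il13, Gata3, Areg and Klrg1, and 2 cells in the other gate.

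The cells of cluster 5 were then compared between the gates, to ask what differs between cells that share a cluster but not a gate. UMIs were summed per replicate, to 91094, 283538 and 235456 UMIs of tested genes in the tdTomato+GFP+ members and to 2825412, 1745905 and 828337 in the tdTomato-GFP- members, and edgeR's quasi-likelihood test was used with Benjamini-Hochberg adjustment. Of 6478 genes tested, 242 (3.74%) had an adjusted p below 0.05, 97 (1.5%) higher and 145 (2.24%) lower in tdTomato+GFP+ members, and 1478 (22.8%) had replicates that did not overlap. This test left out the pairing of the gates by animal, which was read from shared receptors. With the replicate number as a block, which takes up that pairing, 421 genes passed. The count depended on single libraries, since it was 432 without tdTomato+GFP+ replicate 1, 100 without tdTomato+GFP+ replicate 2, 116 without tdTomato+GFP+ replicate 3 and 142 without tdTomato-GFP- replicate 2. The clustering grouped these cells by the same genes, so differences between the gates within the cluster are those that remained after that choice.

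Genes of Treg cells, Foxp3 first among them, fell in the tdTomato+GFP+ members. Foxp3 was at 223, 157 and 193 CPM in tdTomato+GFP+ replicates and 779, 838 and 909 CPM in tdTomato-GFP- replicates (log2 fold change -2.13 with SE 0.16, adjusted p = 3.58e-07). Lrrc32, which presents latent TGF-β, was at 10.6, 0 and 8.22 CPM, against 54.2, 74.7 and 85.1 CPM (log2 fold change -3.75 with SE 0.60, adjusted p = 0.00155), and Itgb8 at 42.6, 6.83 and 4.11 CPM, against 73.6, 91.3 and 90.9 CPM (log2 fold change -2.83 with SE 0.45, adjusted p = 0.00142). In each of these genes all 3 tdTomato+GFP+ replicates lay below all 3 tdTomato-GFP- replicates. Ky, which is on the tissue Treg list, had no UMI in any tdTomato+GFP+ replicate and was at 53.2, 69.2 and 61.8 CPM in tdTomato-GFP- members, which is at least 12.5-fold lower when the group is set to a floor of 3 UMIs (adjusted p = 0.00019). Itgae was at 85.1, 23.9 and 32.9 CPM, against 169.8, 287 and 293 CPM (log2 fold change -2.67 with SE 0.47, adjusted p = 0.0239), Cd81 at 74.5, 61.4 and 20.5 CPM, against 194, 275 and 276 CPM (log2 fold change -2.30 with SE 0.32, adjusted p = 0.00155), and Cd274, the ligand of the inhibitory receptor Pdcd1, at 21.3, 47.8 and 53.4 CPM, against 156, 152 and 190.1 CPM (log2 fold change -1.77 with SE 0.24, adjusted p = 0.000333). Of 28 tested Treg core genes 7 fell and 1, Socs2, rose (median log2 fold change -0.65, against -0.01 over all genes). Of 17 genes of TGF-β activation and response 6 fell and 1 rose (median -0.64), and of 16 tumour necrosis factor receptors 4 fell and none rose (median -0.54). The 4 were Tnfrsf1a, Tnfrsf1b, Tnfrsf18 and Cd27, of which Cd27 was at 106, 109 and 86.3 CPM, against 231, 210.4 and 194 CPM (log2 fold change -1.03 with SE 0.17, adjusted p = 0.00168). Of 28 tissue Treg genes 3 fell and 2 rose (median -0.37), and of 17 suppressive mediators 1, Cd274, fell (median -0.32). Some calls rested on single libraries. Without tdTomato+GFP+ replicate 2 the adjusted p was 0.0532 for Itgb8, 0.174 for Itgae, 0.135 for Tnfrsf18 and 0.0523 for Tnfrsf1a, and without tdTomato+GFP+ replicate 3 it was 0.26 for Itgae, 0.0998 for Tnfrsf18, 0.055 for Tnfrsf1a and 0.0566 for Socs2. Tnfrsf18 also lost its call without tdTomato-GFP- replicate 2 (adjusted p = 0.151) or 3 (0.0654) and with equal numbers of cells (0.161), and Itgae with a hashtag share of 0.95 or more (0.164), which leaves out tdTomato+GFP+ replicate 1.

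Other large falls were in Ankrd55, Frmd5, Art2b, Tmem65, Pde2a, Rgs16 and Nr4a2. Rgs16, which limits signalling by chemokine receptors, was at 10.6, 10.2 and 0 CPM, against 57.3, 57.6 and 50.1 CPM (log2 fold change -3.04 with SE 0.49, adjusted p = 0.00147). Art2b, an ectoenzyme that modifies surface proteins of T cells, was at 0, 3.41 and 0 CPM, against 36.8, 33.2 and 33.8 CPM (log2 fold change -4.30 with SE 0.71, adjusted p = 0.00155). Nr4a2, an orphan nuclear receptor induced by receptor signals, was at 10.6, 6.83 and 12.3 CPM, against 47.7, 83 and 87.4 CPM (log2 fold change -2.79 with SE 0.57, adjusted p = 0.013). Lef1 (log2 fold change -2.50, adjusted p = 0.00401) and Klf2 (-1.28, adjusted p = 0.013) of the naive list fell as well. Several of these calls were lost without 1 library. Without tdTomato+GFP+ replicate 2 the adjusted p was 0.105 for Ankrd55, 0.0715 for Frmd5, 0.103 for Tmem65, 0.0737 for Pde2a, 0.209 for Nr4a2 and 0.0715 for Klf2. Without tdTomato+GFP+ replicate 3 it was 0.0554 for Ankrd55, 0.0603 for Tmem65, 0.135 for Pde2a, 0.127 for Nr4a2 and 0.147 for Klf2, and without tdTomato+GFP+ replicate 1 it was 0.0559 for Nr4a2 and 0.181 for Klf2. With the stricter hashtag share, which leaves no tdTomato+GFP+ cell of replicate 1, it was 0.0641 for Lef1, 0.273 for Klf2, 0.105 for Nr4a2 and 0.0731 for Pde2a. The 3 tdTomato+GFP+ sums are shallow, so a gene at 0 in 1 of them is not shown to be absent.

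Genes that rose in the tdTomato+GFP+ members included cytokine genes and several receptors of T helper cells. Foxp1, a transcription factor with roles in naive and regulatory T cells, was at 457, 341 and 316 CPM in tdTomato+GFP+ members and 103, 89.7 and 89.8 CPM in tdTomato-GFP- members (log2 fold change 1.97 with SE 0.15, adjusted p = 3.58e-07). Il13 was at 947, 447 and 1401 CPM, against 40.6, 46.5 and 86.3 CPM (log2 fold change 4.16 with SE 0.61, adjusted p = 0.0467), and Plac8 at 149, 208 and 378 CPM, against 16, 15.5 and 30.3 CPM (log2 fold change 3.88 with SE 0.38, adjusted p = 0.0014). Il17rb, the receptor for interleukin-25, was at 31.9, 54.6 and 98.6 CPM, against 4.09, 11.1 and 21 CPM (log2 fold change 2.91 with SE 0.64, adjusted p = 0.0407). For these genes the lowest tdTomato+GFP+ replicate was above the highest tdTomato-GFP- replicate. The homing receptor Cxcr6 was at 702, 621 and 542 CPM, against 275, 179 and 222 CPM (log2 fold change 1.5 with SE 0.16, adjusted p = 1.63e-05), and Cd40lg at 181, 416 and 514 CPM, against 74.3, 106 and 99.1 CPM (log2 fold change 2.19 with SE 0.32, adjusted p = 0.012). Impg1 (63.8, 37.5 and 32.9 CPM, against 0, 1.11 and 3.5 CPM), Myo6 (287, 509 and 288 CPM, against 10.9, 33.8 and 40.8 CPM) and 1700061F12Rik (255, 249 and 349 CPM, against 19.1, 46.5 and 46.6 CPM) rose by 5.36, 4.01 and 3.14 on the log2 scale. Il13 lost its call without tdTomato+GFP+ replicate 1 (adjusted p = 0.104) or 3 (0.117) and without tdTomato-GFP- replicate 1 (0.116), 2 (0.148) or 3 (0.057). Cd40lg did so without tdTomato+GFP+ replicate 2 (0.128) or 3 (0.0663), 1700061F12Rik without tdTomato+GFP+ replicate 1 (0.0559), 2 (0.0629) or 3 (0.0955), Myo6 without tdTomato+GFP+ replicate 1 (0.086), 2 (0.128) or 3 (0.168) or tdTomato-GFP- replicate 2 (0.0672), and Il17rb without tdTomato+GFP+ replicate 1 (0.0693), 2 (0.177) or 3 (0.216) or tdTomato-GFP- replicate 2 (0.0531). Plac8 lost its call with equal numbers of cells per replicate number (0.0654). The adjusted p of Il13 ranged over its alternatives from 1.61e-20 with the replicate block to 0.234 with equal numbers of cells.

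Some rises were in genes that are abundant in the other cells of the tdTomato+GFP+ lane. Il17a was at 1553, 826 and 551 CPM in tdTomato+GFP+ members and 102, 85.8 and 81.6 CPM in tdTomato-GFP- members (log2 fold change 3.39 with SE 0.36, adjusted p = 0.00631), while the other clusters averaged 11232 CPM in the tdTomato+GFP+ gate and 1992 CPM in the tdTomato-GFP- gate. Ccl20 was at 659.6, 413 and 296 CPM, against 60.0, 46.5 and 50.1 CPM (log2 fold change 3.05 with SE 0.22, adjusted p = 2.58e-06), with 2308 CPM in the other tdTomato+GFP+ clusters. Vdr, the vitamin D receptor, was at 31.9, 75.1 and 41.1 CPM, against 3.41, 3.32 and 4.66 CPM (log2 fold change 3.97 with SE 0.47, adjusted p = 7.63e-05), with 47.8 CPM in the other tdTomato+GFP+ clusters. Igfbp7, a member of the stromal and endothelial list, was at 234, 71.7 and 45.2 CPM, against 7.84, 2.77 and 4.66 CPM (log2 fold change 4.02 with SE 0.61, adjusted p = 0.00534), with 200.5 CPM in the other tdTomato+GFP+ clusters. The other tdTomato+GFP+ clusters were thus above cluster 5 in the mean for Il17a, Ccl20 and Igfbp7, and near it for Vdr. The part of free RNA from those cells in the rises was not tested. Ccl20 lost its call with a hashtag share of 0.95 or more (adjusted p = 0.191), which leaves out tdTomato+GFP+ replicate 1, and with equal numbers of cells (0.0927). Ighm, an immunoglobulin gene of the B cell list, was at 117, 41 and 65.8 CPM, against 242, 298 and 377 CPM (log2 fold change -2.19 with SE 0.30, adjusted p = 0.00151, and adjusted p = 0.0554 without tdTomato+GFP+ replicate 3).

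**Figure D4:**
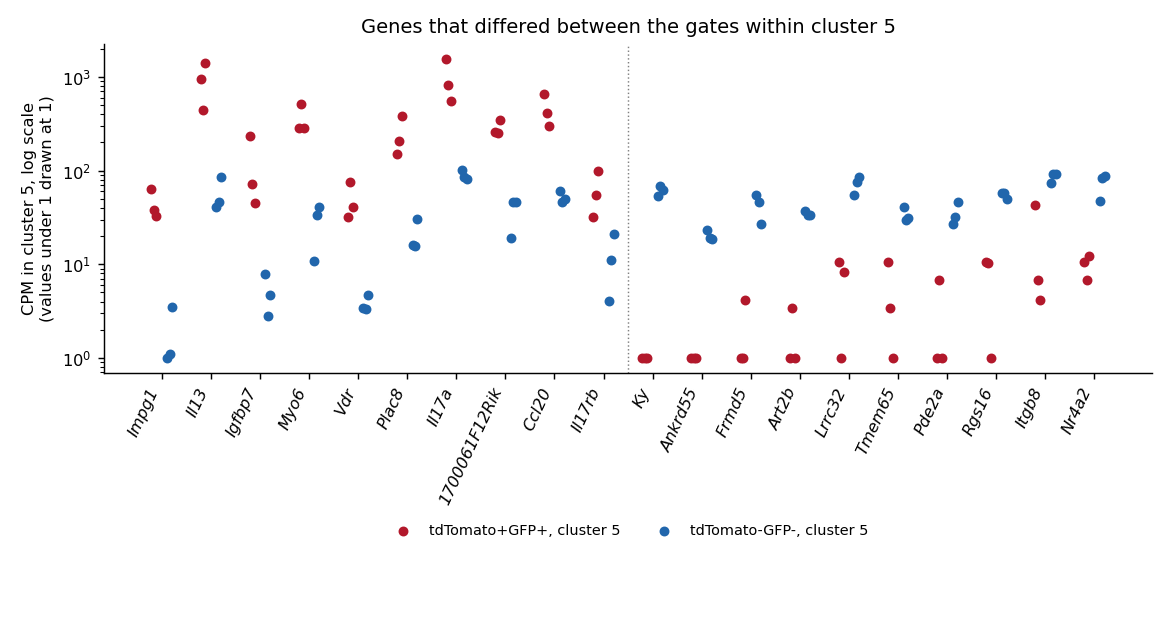
CPM on a log axis, in cluster 5 only, of the 10 genes with the largest rises and the 10 with the largest falls in tdTomato+GFP+ against tdTomato-GFP- members; dots are the hashed replicates and values under 1 CPM are drawn at 1. Ky lies at 0 CPM in all 3 tdTomato+GFP+ replicates and at 53.2, 69.2 and 61.8 CPM in the tdTomato-GFP- replicates.

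For the markers other than Foxp3 a gate difference was not called in the test without the replicate block. Areg averaged 9024 ± 2459 CPM in tdTomato+GFP+ members and 4065 ± 1489.7 CPM in tdTomato-GFP- members (SD, n = 3; log2 fold change 1.21 with SE 0.38, adjusted p = 0.195), with all 3 tdTomato+GFP+ values above the 3 others, and it passed with the replicate block (log2 fold change 1.23, adjusted p = 7.3e-16). Areg also passed with DESeq2 (0.0187), without the filter on low counts (0.0414), without tdTomato-GFP- replicate 1 (0.012) and with equal numbers of cells (0.0162). Gata3 passed with the block (adjusted p = 0.00358, and 0.554 without it) and in none of the other alternatives run. Tnfrsf9 averaged 293 ± 247 CPM in tdTomato+GFP+ and 883 ± 155 CPM in tdTomato-GFP- members (log2 fold change -1.81 with SE 0.55, adjusted p = 0.214). Ikzf2 averaged 133 ± 127 CPM, against 573 ± 145 CPM (log2 fold change -2.44 with SE 0.62, adjusted p = 0.152). For both, tdTomato+GFP+ replicate 1 was the high one, and without it the adjusted p was 0.000973 for Tnfrsf9 and 0.0331 for Ikzf2. Over their alternatives the adjusted p of Tnfrsf9 reached as low as 2.39e-05 and that of Ikzf2 0.00341, both with cells of a main hashtag share of 0.95 or more, a choice that leaves no tdTomato+GFP+ cell of replicate 1 and 74 and 16 cells of replicates 2 and 3. Klrg1 averaged 333 ± 177 CPM, against 514 ± 212 CPM (log2 fold change -0.73 with SE 0.57, adjusted p = 0.639), and Penk 679 ± 544 CPM, against 891 ± 209.6 CPM (log2 fold change -0.42 with SE 0.95, adjusted p = 0.907).

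The gate difference of cluster 5 was set against that of other clusters by an interaction term in edgeR, with the hashed replicate in the model. The clustering used these genes, and Foxp3 is a marker of cluster 5. The differences and their p-values thus also depend on how cells were assigned to clusters, and that part was not tested. It differed from that of cluster 0 for 212 of 9545 genes (2.22%), 93 (0.974%) in favour of tdTomato+GFP+ members of cluster 5 and 119 (1.25%) against them. It differed from that of clusters 1 to 3, which hold Il17a-expressing cells, for 419 of 9590 genes (4.37%), 199 (2.08%) and 220 (2.29%) in the same order. Foxp3 averaged 93.5 CPM in tdTomato+GFP+ and 75.1 CPM in tdTomato-GFP- cells of cluster 0, and the fall in cluster 5 differed from that (difference of log2 fold changes -2.40, SE 0.18, adjusted p = 1.2e-20). In clusters 1 to 3 it averaged 145 and 35.5 CPM in the same order of gates (difference -3.99, SE 0.40, adjusted p = 0.0024, and 0.0523 without tdTomato+GFP+ replicate 1). Cd40lg, Cxcr6, Foxp1 and Il17a rose more in cluster 5 than in cluster 0 (differences 2.24, 1.22, 1.16 and 1.51, adjusted p = 1.92e-19, 1.91e-09, 1.97e-07 and 2.74e-12). For Il13 the difference from cluster 0, where it averaged 667 CPM in tdTomato+GFP+ and 322 CPM in tdTomato-GFP- cells, was 2.97 (SE 0.65, adjusted p = 0.184) and did not pass, while it passed with DESeq2 (3.11, adjusted p = 0.00152). The counts rested on single libraries, being 74 and 198 without tdTomato+GFP+ replicate 2, 93 and 208 without tdTomato+GFP+ replicate 3, and 119 without tdTomato-GFP- replicate 2 for the comparison with cluster 0.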

How the data were processed

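Single-cell RNA and T cell receptor libraries of sorted colonic CD4 T cells were compared, 1 library of each kind per gate with 3 hashed replicates. The authors deposited raw UMI counts per cell for 15473 genes, with cluster numbers, hashed replicates and the fraction of hashtag counts from a cell's main hashtag, which is also a deposited value. Per the submitters' processing notes, Cell Ranger, Scanpy 1.7.2 and the builds mm10 and GRCm38 were used, but filters, clustering settings and the hashtag rule are not given in the sources used here. Of 23595 deposited cells, 4721 had no replicate and 216 more no cluster, and these were left out. Every gene had at least 10 cells, every cell at least 399 genes, and every assigned cell a main hashtag share of at least 0.8. The deposited total of each cell equalled its row sum, with 3 hashtag columns included. The part of hashtag mix-ups in the values was not tested beyond the stricter share of 0.95.

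Hashtag columns and 135 receptor genes were removed, UMIs were summed per hashed replicate and cluster, and sums were tested with edgeR 4.0.16 in R 4.3.3 (TMM factors, a minimum count of 10 in its expression filter, robust quasi-likelihood fit, two-sided test, Benjamini-Hochberg adjustment over all tested genes, threshold 0.05). The p-values measure the spread between hashed replicates of 1 lane. Gates were compared without a block, although equal replicate numbers were read as the same animals, and the block was an alternative. Interactions had the hashed replicate as a term, and expanded clonotypes were compared with single ones within replicates. DESeq2 1.42.0, other factors and filters, stricter cell choices and each replicate left out were alternatives. Clonotypes were the alpha and beta junctions with their V genes. Thinning drew 2000 UMIs per cell with a fixed seed. Fits were tested on simulated counts. Floors of 3 UMIs cover counting error only. Figures used matplotlib 3.10.9, sparse count matrices scipy 1.17.1, and receptor tests numpy 2.4.6.

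The replicate numbers of the gates were checked for pairing by receptors. Gates with the same number shared 18, 23 and 32 clonotypes, none through a shared barcode, and those with different numbers 0 to 3, so numbers were read as marking the same animals. Deviations of expression from the gate means correlated at 0.113, 0.00283 and 0.155 for the same number. For different numbers the correlations ranged from -0.174 to 0.0336, and the value of replicate 2 lay within that range.

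Named genes were the 6 markers, the 20 highest and 10 lowest folds in the tdTomato-GFP- gate, up to 10 genes each way per test with adjusted p below 0.05, replicates that did not overlap and 20 CPM or more in the higher group (5 each way for interactions, with no rule on overlap), and members of the gene lists. Clones named were the 3 largest of each tdTomato-GFP- replicate and the largest of each tdTomato+GFP+ replicate. Values of some single genes are not reported here. The members, lists and tests were chosen with earlier results of these data known.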

Additional observations from a re-analysis of the deposited data

Results flagged for a closer look

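In 20 cases, over 18 genes, the gate difference of cluster 5 differed from that of another group of cells by the interaction term in edgeR, with Benjamini-Hochberg adjustment. They are the 5 genes with the largest difference in each direction, and their values are differences of log2 fold changes (tdTomato+GFP+ over tdTomato-GFP-). Because the clustering used these genes, the values also depend on how cells were assigned to clusters.

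Against cluster 0, the differences in favour of tdTomato+GFP+ members were 7.17 for Stab2 (adjusted p = 6.81e-07), 5.49 for Xcl1 (0.0491), 3.73 for Il6 (0.000958), 3.52 for Cd200r3 (0.0249) and 3.31 for Impg1 (0.00654). The opposite ones were -4.09 for Hspb1 (0.0043), -3.52 for Art2b (0.0495), -3.42 for Bambi (0.0295), -3.39 for Flicr (0.000186) and -3.07 for Pde2a (0.0242). Flicr, a long noncoding RNA beside Foxp3, was at 31.9, 10.2 and 4.11 CPM in tdTomato+GFP+ members of cluster 5, against 33.4, 28.2 and 18.7 CPM in tdTomato-GFP- members. In cluster 0 it averaged 11.6 CPM in the tdTomato+GFP+ gate and 2.08 CPM in the tdTomato-GFP- gate. Xcl1, a chemokine gene, was at 255, 0 and 0 CPM in tdTomato+GFP+ members, with UMIs in replicate 1 alone, and at 5.8, 1.66 and 1.17 CPM in tdTomato-GFP- members. Each of these 10 genes lost its adjusted p below 0.05 in at least 1 alternative.

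Against clusters 1 to 3, the differences in favour of tdTomato+GFP+ members were 8.72 for Stab2 (0.000329), 8.23 for Csf2 (0.0281), 5.37 for Dnajc6 (0.0105), 4.64 for Il17rb (0.000167) and 4.28 for Hs3st1 (6.73e-05). The opposite ones were -9.37 for Ky (0.02), -5.58 for Frmd5 (3.5e-05), -4.39 for Flicr (5.91e-07), -4.39 for Gm15340 (0.0237) and -3.99 for Foxp3 (0.0024). Csf2, the growth factor of granulocytes and macrophages, was at 10.6, 88.8 and 571 CPM in tdTomato+GFP+ members, with replicate 3 far above the others, and at 7.5, 4.43 and 7.0 CPM in tdTomato-GFP- members. Stab2 was at 0, 47.8 and 57.5 CPM in tdTomato+GFP+ members and had no UMI in tdTomato-GFP- members, which is at least 82.9-fold higher over a floor of 3 UMIs in the group. Of these 10, Il17rb, Frmd5 and Flicr kept an adjusted p below 0.05 in each alternative in which they were tested.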

How the results depend on the processing

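Counts of genes past the threshold moved with the processing by over 1.5 times in the following cases, and the cause was not tested except where fewer samples or genes entered. The count of 242 gate differences in cluster 5 was 482 without the filter on low counts, 134 with equal numbers of cells per replicate number, and between 100 and 432 when 1 replicate was left out. DESeq2 moved its split to 123 higher and 122 lower, and leaving out tdTomato+GFP+ replicate 1 to 217 and 215, against 97 and 145. The 212 differences from cluster 0 were 88 with DESeq2 (56 higher, 32 lower), 82 with hashtag shares of 0.95 or more (49 and 33), against 93 and 119, and between 74 and 230 without 1 replicate. The 419 differences from clusters 1 to 3 were 214 with DESeq2 (126 and 88), 265 with the stricter hashtag share (158 and 107), against 199 and 220, and between 198 and 571 without 1 replicate. The 12 genes of expanded clonotypes were 3 with DESeq2, 26 without the filter, 4 with a minimum count of 30, 1 with the stricter hashtag share, 24 with clonotypes of 2 or more cells, and between 10 and 32 without 1 replicate. The stricter hashtag share leaves no tdTomato+GFP+ cluster 5 cell of replicate 1, so it also removes that replicate. Xcl1 turned direction against cluster 0, to -2.42 with that share and -2.52 without tdTomato+GFP+ replicate 1, and reached 6.71 without tdTomato-GFP- replicate 1. The counts of 197 and 126 genes, the clonotype coincidence and the overlap stayed within those bounds or within 1 SD in each alternative. For the 2 counts and the overlap the alternatives were chosen after seeing the data. With 3 replicates, leaving 1 out cannot move a mean by 1 SD, so the SD rule could not fail there and shows no stability. The coincidence difference of the tdTomato-GFP- gate was 2.46 with all replicates. It was 0.291 without replicate 2, 3.76 without replicate 1 and 3.35 without replicate 3. Omitting the filter shifted the median log2 fold change of all genes to -0.20, -0.20 and -0.29 in the gate test and the comparisons with cluster 0 and clusters 1 to 3. The 3 tdTomato+GFP+ sums, of 91094 to 283538 UMIs, limit what could be detected.

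Pairing by replicate number: with the replicate block the gate test called 421 genes in place of 242, Areg and Gata3 passed, and no other named call changed. For expanded against single clonotypes, dropping the block left 1 gene.

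Of the genes named, 15 of 36 called gate differences, 4 of 15 against cluster 0, 3 of 10 against clusters 1 to 3 and 2 of 12 for expanded clonotypes kept an adjusted p below 0.05 in each alternative in which they were tested.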

Other observations

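Further gene groups of the tdTomato-GFP- members are given here as counts at the 1.5-fold rule in all 3 replicates, with medians of the log2 difference between cluster 5 and the other clusters. Genes induced by receptor signals were higher for 7 of 19 and lower for none (median 0.64), among them Rel (190.2, 259 and 237 CPM in cluster 5, against 110.4, 105 and 98.1 CPM) and Cd83 (343, 621 and 731 CPM, against 104, 111 and 92.4 CPM). Genes of homing and chemokine receptors were higher for 7 of 23 and lower for 3 (median 0.28), with Ccr2 and Gpr55 among the higher and Cxcr6 and S1pr1 among the lower. Gpr55, a lipid receptor of intestinal lymphocytes, was at 67.2, 82.5 and 74.6 CPM, against 16.2, 14.2 and 18.3 CPM. Genes of the interferon response were higher for 3 of 14 (median 0.63), with Oas1a and Isg20 among them. Genes of the interleukin-2 and Stat5 pathway were higher for 2 of 18, Il2ra and Pim1, and lower for 1, the survival gene Bcl2 (median 0.28). Of 11 follicular helper genes Pdcd1 and Icos were higher and 2, Il21 and Slamf6, lower (median 0.11). Of 19 stress genes Dusp1 was higher and Hspa1a lower (median 0.03). Of 16 genes of the receptor complex 1, Thy1, was lower. Of 13 mitochondrial genes none passed the 1.5-fold rule (median -0.29), but their sum was lower in each replicate. The sum was at 7400, 7565 and 7308 CPM in cluster 5, against 8933, 9077 and 8930 CPM.

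Between the gates, tdTomato+GFP+ members of cluster 5 had 2 of 17 tested genes of the interleukin-2 and Stat5 pathway higher, Socs2 and Pim2, and 4 lower, Stat5b, Socs1, Socs3 and Mcl1 (median log2 fold change -0.35, edgeR adjusted p below 0.05 for each). Among transcription factors of the Treg list, Foxp1, Bhlhe40 and Irf4 rose and Foxp3, Lef1, Foxo1 and Stat5b fell, of 25 tested. Summed markers of other cell types were at 177 to 255 CPM in tdTomato+GFP+ and 501 to 615 CPM in tdTomato-GFP- members for B and plasma cells, and at 283 to 308 and 392 to 499 CPM for myeloid cells. For stromal cells the sums were 94.5 to 245 CPM in tdTomato+GFP+ and 24.9 to 33.4 CPM in tdTomato-GFP- members, with Igfbp7 at 234, 71.7 and 45.2 CPM of the tdTomato+GFP+ sums, and for epithelial cells 0 to 42.6 and 37.8 to 100.3 CPM. The list of natural killer and innate lymphoid cells summed to 7277 to 12806 CPM in tdTomato+GFP+ and 3079 to 6355 CPM in tdTomato-GFP- members, mostly from Areg, which the tissue Treg list holds too. Gamma delta T cell genes summed to 10.6 to 133 and 16.7 to 29.1 CPM, and the Cd8 gene of the list to 0 to 17.1 and 12.7 to 14 CPM in the same order. The 1 erythroid gene measured was at 0 to 0 CPM in tdTomato+GFP+ and 0 to 0.554 CPM in tdTomato-GFP- members. None of the 7 listed mast cell genes was among the deposited genes, so RNA of mast cells could not be assessed.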
